A study of Mus musculus with 12 samples.

Results

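The 38 genes described here encode proteins that copy the genome and divide the cell: 20 genes of DNA replication, 15 genes of mitosis, and 3 cyclins of G1 and of the step into S phase (Ccnd1, Ccne1 and Ccne2). They were chosen by name and function with earlier results of these data known, and not by a threshold on measured values. Each gene was read from 1 probe, the one with the highest mean over the 12 arrays in the authors' normalized values. The platform annotation named a probe for 35 of the 38 genes and none for Mki67, Rfc3 and Ccnb1. Of these 35 genes, 31 were well above background on at least 2 arrays and entered a test that covered 10084 genes in all. Pola1, Rrm2, Bub1 and Cenpe were not well above background on any of the 12 arrays, so their levels were not measured.

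The arrays held RNA from mouse embryonic stem (ES) cells of the E14tg2a line, of strain 129/P2, grown in GMEM with LIF and fetal calf serum. Tcf15-E47 cells carry a construct that doxycycline (dox) switches on, in which Tcf15, a bHLH transcription factor, is combined with E47, a common bHLH partner encoded by the gene Tcf3. These cells were sampled with 0, 8, 12 and 24 h of dox at 1 µg/mL, and the parental cells, which serve as the control, with 8 h and with 0 h. Each of the 6 groups held 2 arrays (n = 2 throughout), and the labels do not say whether these came from separate cultures, so the p-values measure only the spread between these arrays, which may be technical. No parental arrays were taken at 12 or 24 h, so dox, the construct and time in culture cannot be told apart at those times. The labels do not say which promoter drives the construct or whether the line is 1 clone.

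Before a cell enters S phase, Cdc6 and Cdt1 load the ring of Mcm2 to Mcm7 onto replication origins. With the GINS complex and Cdc45 that ring becomes the helicase that opens the duplex, and the sliding clamp Pcna, placed by the Rfc clamp loader, holds the polymerases on the DNA. Cyclins with their kinases drive these steps, the kinases Aurka, Aurkb and Plk1 then organise the spindle and the chromosomes, and Bub1b, Mad2l1 and Cdc20 time the separation of the chromatids. Many replication genes are known to be controlled by E2F factors in late G1, and many mitotic genes by the MuvB complex, which binds a short element called the CHR, often together with the factor NF-Y at CCAAT boxes. ES cells are known for a very short G1 phase and for cyclin E activity that lasts through much of the cycle.

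The promoters of the replication and mitosis genes differed in these motifs. Promoter windows from RefSeq (GRCm38.p6), 250 bases before to 50 bases after the annotated start, were found for 30 of the 38 genes and were searched on both strands. Of 16 replication genes with a window, 8 held an E2F-type match (TTTCCCGC, TTTGGCGC, TTTCGCGC or TTTGCCGC), or 50%, namely Mcm3, Mcm5, Mcm6, Mcm7, Cdc6, Cdt1, Pola1 and Rfc3. Among 13 mitosis genes only Cdk1 held one, or 7.69%, and among all 27025 genes of the RefSeq set the share was 2.6%. A CHR-type match (TTTGAA or TTCGAA) lay in the windows of 9 of the 13 mitosis genes (69.2%), in 3 of the 16 replication genes (18.8%) and in 21.7% of all genes. The 9 mitosis genes were Aurka, Bub1, Bub1b, Cdc20, Cdk1, Cenpa, Mki67, Plk1 and Top2a, and each of the 9 windows also held CCAAT, a combination that 8.61% of all genes had. Where a gene had several windows, a match in any of them was counted, and 1 pair of matches of different kinds overlapped among these genes.

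**Figure D1:**
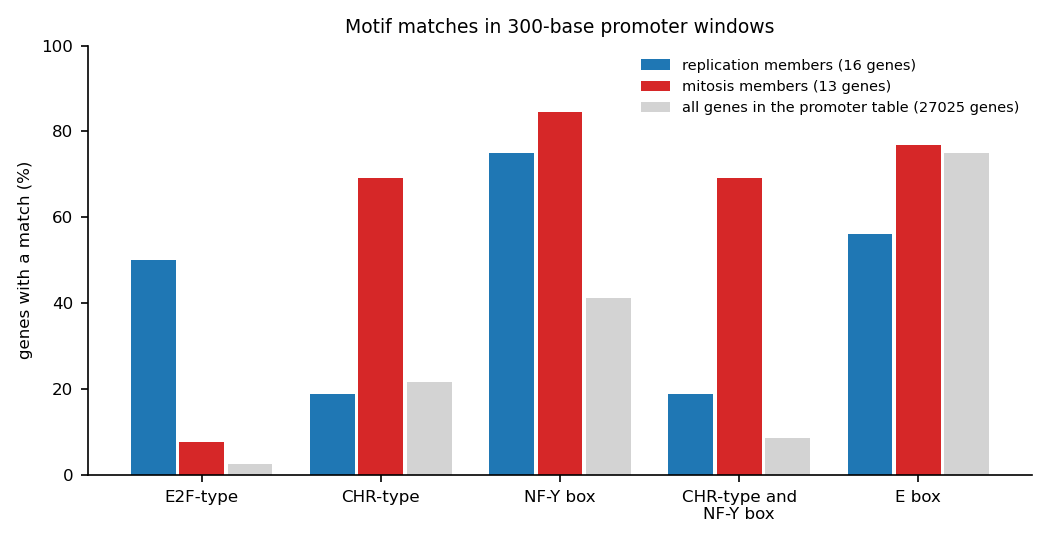
Share of genes (percent, vertical axis) whose 300-base promoter window held each motif, for 16 replication genes (blue), 13 mitosis genes (red) and all 27025 genes of the promoter table (grey). E2F-type matches were held by 50% of the replication genes and 7.69% of the mitosis genes, and CHR-type matches by 18.8% and 69.2%.

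The 4 windows below show what those shares look like in letters, with E2F-type, CHR-type and CCAAT matches on either strand in capitals and each window printed 5′ to 3′ along its gene. Pcna and Aurka are the 2 genes of the 38 that passed the test in a comparison. Mcm6 and Top2a are shown as a replication and a mitosis promoter with several matches. The Mcm6 window lies at chr1:128359656-128359955 on the minus strand and holds 3 E2F-type matches, of which 2 overlap, and 2 CCAAT boxes. The Pcna window, at chr2:132253131-132253430 on the minus strand, holds 1 CCAAT box and no E2F-type or CHR-type match as spelled here. The Top2a window, at chr11:99024140-99024439 on the minus strand, holds 4 CHR-type matches and 6 CCAAT boxes. The Aurka window, at chr2:172370521-172370820 on the minus strand, holds 1 CHR-type match and 2 CCAAT boxes.
Mcm6: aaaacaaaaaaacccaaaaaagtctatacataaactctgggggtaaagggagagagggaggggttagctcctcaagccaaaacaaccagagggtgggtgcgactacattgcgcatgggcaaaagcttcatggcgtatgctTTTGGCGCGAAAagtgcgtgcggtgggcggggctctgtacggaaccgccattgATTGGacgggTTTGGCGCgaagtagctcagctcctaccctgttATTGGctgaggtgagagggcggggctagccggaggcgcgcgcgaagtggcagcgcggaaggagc
Pcna: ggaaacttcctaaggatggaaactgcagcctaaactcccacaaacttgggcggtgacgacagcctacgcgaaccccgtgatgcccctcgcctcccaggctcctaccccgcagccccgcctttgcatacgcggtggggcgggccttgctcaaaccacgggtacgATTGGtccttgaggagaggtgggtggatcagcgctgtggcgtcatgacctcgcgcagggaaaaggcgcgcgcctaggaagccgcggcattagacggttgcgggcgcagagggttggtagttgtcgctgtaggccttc
Top2a: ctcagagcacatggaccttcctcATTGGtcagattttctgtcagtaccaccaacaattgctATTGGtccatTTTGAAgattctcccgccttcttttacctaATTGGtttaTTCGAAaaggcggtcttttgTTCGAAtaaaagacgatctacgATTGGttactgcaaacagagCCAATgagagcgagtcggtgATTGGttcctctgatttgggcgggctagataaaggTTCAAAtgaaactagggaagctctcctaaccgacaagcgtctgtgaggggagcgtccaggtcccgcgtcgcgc
Aurka: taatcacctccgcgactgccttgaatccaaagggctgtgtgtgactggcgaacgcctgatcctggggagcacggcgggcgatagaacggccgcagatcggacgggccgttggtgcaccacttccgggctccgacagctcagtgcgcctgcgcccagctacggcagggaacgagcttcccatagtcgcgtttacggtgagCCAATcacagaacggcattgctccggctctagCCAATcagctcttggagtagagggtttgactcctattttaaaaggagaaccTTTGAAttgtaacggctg
E boxes are the sites that E47 and its bHLH partners are known to bind. The general form CANNTG was matched in 19 of the 30 genes (63.3%) and in 75% of all genes. CAGGTG was matched in 2 of the 30, Prim1 and Tyms (6.67%), against 22.6% of all genes, and CAGCTG in 4 of the 30 (13.3%), against 18.3%. Neither the Aurka nor the Pcna window held any CANNTG match.

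Median probe signal per array ran from 89.0 to 103.1 units and 30.7% to 34.7% of probes were detected. Replicate arrays correlated at 0.9942 to 0.9966 over the genes tested. All 9 of the ES cell markers with a probe, among them Pou5f1, Sox2 and Nanog, were detected on all 12 arrays, with a summed signal of 41247 to 46893. In Tcf15-E47 cells, 1 of the 9 passed as lower and 1 as higher at 12 h and at 24 h against 0 h. At those times dox, the construct and time in culture cannot be told apart. Nanog, a pluripotency factor, was lower, at -1.14 log2 units at 12 h (limma adjusted p = 6.79e-05) and -0.99 at 24 h (adjusted p = 0.000178), and passed under all 11 alternatives. Utf1, a chromatin factor of ES cells, was higher by 0.46 and 0.51 (adjusted p = 0.0282 and 0.0279), calls that were lost without any 1 of the arrays compared. At 24 h the Utf1 call was also lost with no filter. Esrrb was lower at 12 h than at 8 h (-0.46, adjusted p = 0.0221), a call also lost without any 1 array and with scaling by array medians. Of 10 fibroblast markers 1 or 2 were detected on every array except replicate 2 of the parental cells at 8 h, which detected 5 (summed signal 475, against 310.6 to 356.6 elsewhere), while Col3a1, Lum, Postn, Pdgfra and Pdgfrb were detected on none. Of 7 primitive endoderm markers 1 to 3 were detected per array, and Gata4, Sox17, Pdgfra and Foxa2 on none. Of these, Dab2 was lower at 12 h (-0.46, adjusted p = 0.0447) and Sox7 at 24 h, where it was not well above background (at least 1.04-fold, adjusted p = 0.0277), and both calls were lost without any 1 of the arrays compared. They were also lost under 4 (Dab2) and 5 (Sox7) of the 7 other alternatives, with differences as small as -0.22 and -0.09. Whether these marker changes had a part in the values of the 31 genes at the same times was not tested. The probe for Tcf3, the gene of E47, was higher in Tcf15-E47 cells by 1.40 ± 0.20 log2 units at 12 h (SE, limma adjusted p = 0.00147) and by 0.93 at 24 h (adjusted p = 0.0218, 0.0906 with no filter, and 0.0934 to 0.163 without either 0 h array or replicate 2 at 24 h), and its difference at 8 h was 1.20 (adjusted p = 0.105). In the authors' normalized values the Tcf3 differences were 0.60 at 12 h and 0.37 at 24 h, and both passed. The probe for Tcf15 differed by -0.04 to 0.10 at the same times, and whether it lies in the part of the gene that the construct carries was not examined.

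After 8 h of dox, none of the 31 genes passed the test in Tcf15-E47 cells (limma, Benjamini-Hochberg adjusted p under 0.05 over all 10084 genes), and 0% of all genes did. At an unadjusted p under 0.05 there were 2 of the 31, Pcna and Ccne2, and 432 of all genes. At 12 h against 0 h, 1 of the 31 passed, Aurka, which was higher, and 7.74% of all genes passed (3.03% higher). At 24 h against 0 h none of the 31 passed, against 4.19% of all genes, with 5 of the 31 and 1953 of all genes at an unadjusted p under 0.05. The median difference of the 31 genes was -0.03 log2 units at 8 h, -0.02 at 12 h and 0.02 at 24 h, beside medians over all genes of 0.00, 0.01 and 0.00. Scaled by array medians in place of quantiles, the medians of the 31 were 0.02 at 8 h, 0.14 at 12 h and 0.15 at 24 h, so those at 8 h and 12 h changed sign, and at 12 h and 24 h those of all genes were 0.10 and 0.12. The median of the 31 was also above 0 at 12 h without replicate 1 of 12 h (0.02) and below 0 at 24 h without replicate 2 of 0 h (-0.0022). The same scaling turned the split of all called genes at 12 h to 256 higher and 173 lower (306 and 474 with quantiles), at 24 h to 211 and 77 (163 and 260), at 24 h against 12 h to 49 and 20 (94 and 93), and between the untreated lines to 175 and 55 (249 and 307).

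The intervals around these differences were narrow. The 95% interval of the difference lay within 1.5-fold in either direction for 28 of the 31 genes at 8 h, 28 at 12 h and 30 at 24 h, and within 2-fold for all 31 at each time. Over all genes the interval lay within 1.5-fold for 94.4%, 80.7% and 84.2%. The widest interval among the 31 was that of Prim1, whose probe was well above background on 9 of the 12 arrays. The groups of arrays did not overlap for 10 of the 31 genes at 8 h (1 higher, 9 lower), 19 at 12 h (9 higher, 10 lower) and 18 at 24 h (10 higher, 8 lower), where 32.6% (16.7% higher, 15.9% lower), 57.4% (29.6% and 27.8%) and 48.5% (24.1% and 24.4%) of all genes did not overlap. In samples of whole cultures, fewer cells in a phase of the cycle and less RNA per cell cannot be told apart.

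**Figure D2:**
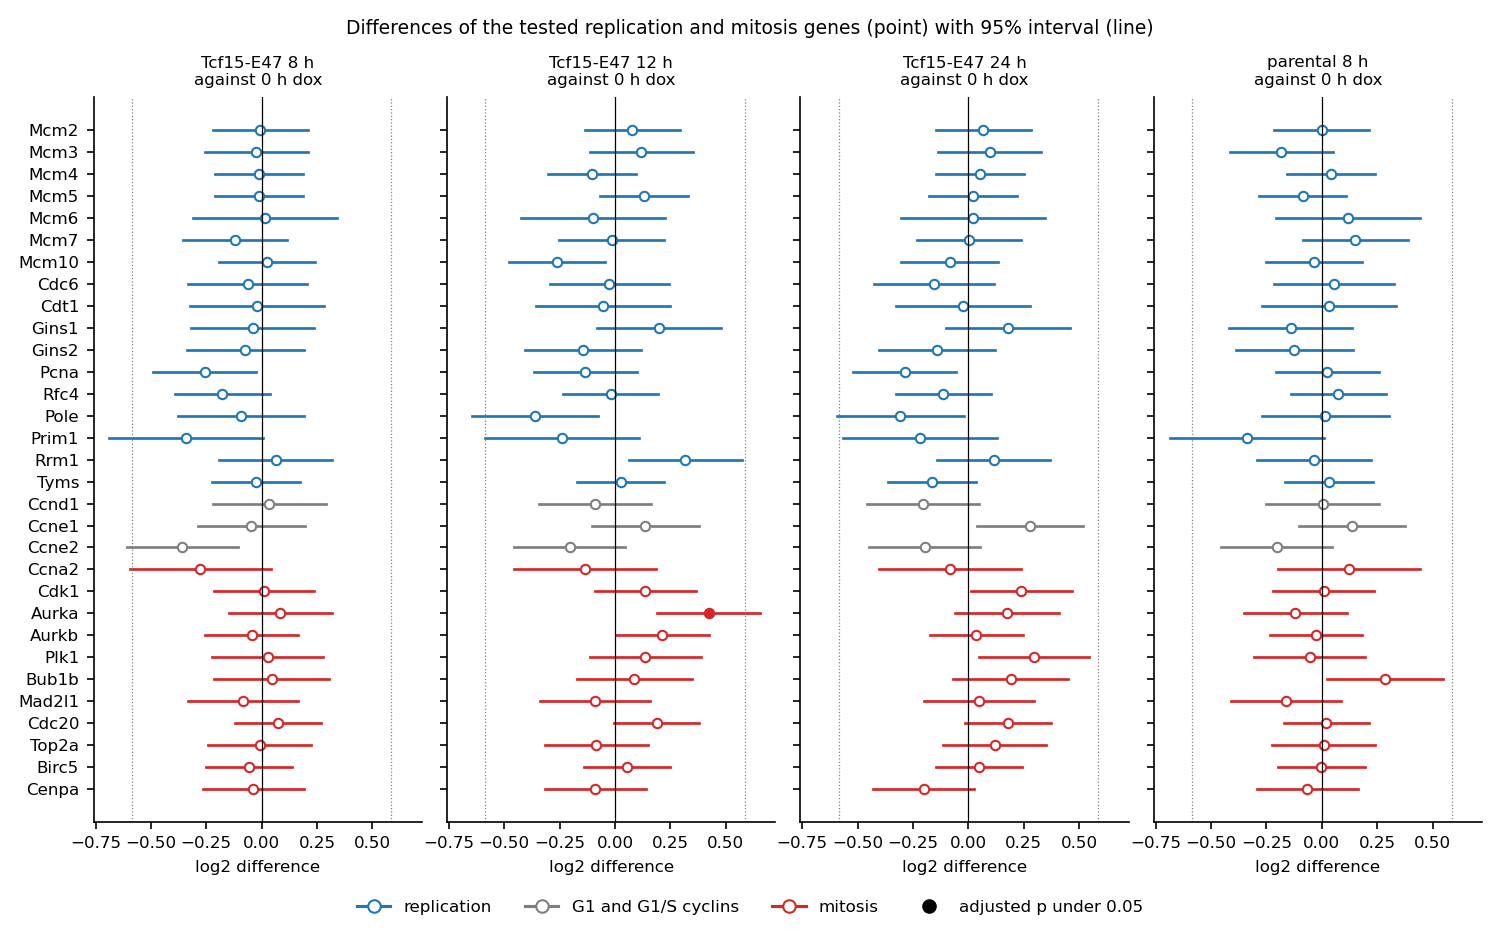
Log2 difference (horizontal axis) of each of the 31 tested genes (rows) with its 95% interval (line), for Tcf15-E47 cells at 8, 12 and 24 h against 0 h of dox and for parental cells at 8 h against 0 h; blue, replication; grey, G1 and G1/S cyclins; red, mitosis; filled points passed the test and dotted lines mark 1.5-fold. Aurka at 12 h, at 0.42, is the only filled point, and most intervals lie between the dotted lines.

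None of the 11 origin licensing and helicase genes passed at any time, and the median of Mcm2 to Mcm7 was -0.01 at 8 h, 0.03 at 12 h and 0.04 at 24 h against 0 h. Mcm2, a subunit of the ring, had the narrowest range of the 31 genes, with group means that spanned 0.08 log2 units (1.06-fold) over the 6 groups. Its arrays read 10.66 and 10.77 at 0 h, 10.78 and 10.64 at 8 h, 10.74 and 10.85 at 12 h, and 10.75 and 10.82 at 24 h of dox. The ranges of the 4 groups overlap, so no time stood apart. Mcm4 spanned 0.16 (1.12-fold) and Mcm5 0.22 (1.16-fold). Both 12 h arrays were the lowest of the 12 for Mcm4, at 12.22 and 12.20, and the highest for Mcm5, at 12.13 and 12.17.

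Mcm10, which joins the helicase when it starts to move, had the largest difference in this group in Tcf15-E47 cells. It read 10.94 and 10.90 at 0 h, 10.85 and 11.04 at 8 h, 10.62 and 10.69 at 12 h, and 10.89 and 10.78 at 24 h. Both 12 h arrays lay below all others, including the parental ones at 10.80 and 10.87 with dox and 10.85 and 10.89 without. The difference at 12 h was -0.26 ± 0.10 (SE, 95% interval -0.48 to -0.05) and did not pass (limma adjusted p = 0.130). Of its other probes, a pair well above background on all arrays differed by 0.00 and -0.07. Gins1, a subunit of the GINS complex, was at 0.20 at 12 h and 0.18 at 24 h, and neither difference passed. The loaders Cdc6 and Cdt1 differed from 0 h by -0.15 to -0.02 at the 3 times.

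All 4 tested genes of the clamp, the clamp loader and the polymerases had means below 0 h at 8, 12 and 24 h, though with median scaling 3 of the 4 did at 12 h and at 24 h, and none passed. These comparisons share the 0 h arrays, so they are not separate observations. On those arrays all 4 genes also had means above untreated parental cells, with a median difference of 0.24. Against 0 h, the medians of the 4 genes were -0.22 at 8 h, -0.19 at 12 h and -0.25 at 24 h, and with median scaling -0.17, -0.11 and -0.14. At 8 h the median was -0.13 with the authors' values. At 12 h the median was -0.09 with the authors' values, -0.09 without replicate 1 of 0 h, -0.05 without replicate 1 of 12 h (3 of the 4 below 0 h) and -0.29 without replicate 2 of 12 h, and at 24 h it was -0.16 with the authors' values and without replicate 1 of 0 h, and -0.14 without replicate 2 of 24 h. Among genes of the same machines outside the 38, Rfc1 passed at 12 h and is given below, while others lay on both sides of 0 h without passing, such as Rfc2, a clamp loader subunit, at 0.29 (adjusted p = 0.156), Pold1 and Pold2, subunits of polymerase delta, at 0.14 and 0.12, and Pold3, a further subunit, at -0.12. Pole, the catalytic subunit of polymerase epsilon, read 7.92 and 8.05 at 0 h, 7.83 and 7.95 at 8 h, 7.58 and 7.67 at 12 h, and 7.82 and 7.54 at 24 h. The 12 h and 24 h arrays all lay below both 0 h arrays. The differences were -0.36 ± 0.13 at 12 h (adjusted p = 0.116) and -0.31 ± 0.13 at 24 h (adjusted p = 0.220).

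Pcna read 8.48 and 8.25 at 0 h, 8.13 and 8.08 at 8 h, 8.18 and 8.27 at 12 h, and 8.10 and 8.05 at 24 h of dox. The 8 h and 24 h arrays lay below both 0 h arrays, and the 12 h arrays overlapped them. The differences from 0 h were -0.26 ± 0.11 at 8 h (adjusted p = 0.999), -0.13 at 12 h and -0.29 ± 0.11 at 24 h (adjusted p = 0.163). The clamp loader subunit Rfc4 was at -0.18, -0.02 and -0.11 at the 3 times. Prim1, the catalytic subunit of primase, was at -0.34, -0.24 and -0.22, with the widest intervals. The authors' deposited table gives smaller log2 fold changes for this dim probe, -0.110, -0.075 and -0.071. In parental cells Prim1 was also at -0.34 after 8 h of dox, without overlap of the arrays and without passing. The 8 h responses of the lines thus differed by -0.0037 for Prim1.

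Of the genes of nucleotide supply, Rrm1 and Tyms were tested. Rrm1, the large subunit of ribonucleotide reductase, read 8.73 and 8.84 at 0 h, 8.73 and 8.97 at 8 h, 9.12 and 9.08 at 12 h, and 8.91 and 8.88 at 24 h. The 12 h arrays were the highest 2 of the 12, above the parental arrays at 9.01 and 8.75 with dox and 8.84 and 8.99 without. The difference at 12 h was 0.32 ± 0.12 (95% interval 0.06 to 0.57) and did not pass (adjusted p = 0.123). Tyms, thymidylate synthase, was within 0.16 log2 units of 0 h at all 3 times.

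None of the 3 cyclins of G1 and G1/S passed. Ccne1, an activator of Cdk2 at the G1/S boundary, read 9.34 and 9.43 at 0 h, 9.45 and 9.23 at 8 h, 9.52 and 9.53 at 12 h, and 9.76 and 9.56 at 24 h. The 12 h and 24 h arrays lay above both 0 h arrays. The difference was 0.14 at 12 h and 0.28 ± 0.11 at 24 h (adjusted p = 0.190). Ccne1 also spanned the widest range of group means of the 31 genes, 0.52 log2 units (1.43-fold), with 9.66 at 24 h in Tcf15-E47 cells and 9.15 in untreated parental cells. Ccne2, the second E-type cyclin, was well above background on 5 of the 12 arrays and on neither 8 h array of Tcf15-E47 cells. Its measured mean there was at least 1.25-fold below that of 0 h, a difference that did not pass (adjusted p = 0.965). For such bounds the dim arrays were set at the weakest signal that counted as detected, or at the probe's own signal if stronger. The bounds concern means and leave out the spread between arrays. They hold only for values after the background correction used here. In the authors' deposited table Ccne2 has a smaller log2 fold change at 8 h, -0.107. In parental cells Ccne2 was at -0.20 after 8 h of dox, and the difference of both 8 h responses was -0.16, neither of which passed. Ccnd1, the D-type cyclin that mitogens are known to induce, was at -0.21 at 24 h on the probe used, while its other probes were at -0.06 and -0.47, and none of the 3 passed.

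The genes of mitosis stood a little above 0 h in their median at 12 and 24 h, at 0.09 and 0.12, with 7 of 11 and 9 of 11 differences positive (10 and 9 with median scaling). With median scaling the medians were 0.27 and 0.26, where those of all genes were 0.10 and 0.12. With quantiles and an array left out, the medians at 12 h ran from 0.03 (without replicate 2 of 0 h) to 0.13 (without replicate 1 of 0 h). Those at 24 h ran from 0.04 (without replicate 2 of 24 h) to 0.18 (without replicate 1 of 24 h). The 45 other mitosis genes tested had medians of -0.03 and -0.01, with 20 and 22 of 45 positive. Aurka was the member that passed. Aurora A kinase, its product, is needed for centrosome maturation and spindle assembly. Aurka read 9.91 and 9.83 at 0 h, 9.84 and 10.06 at 8 h, 10.33 and 10.24 at 12 h, and 9.99 and 10.09 at 24 h of dox. Both 12 h arrays were above all 10 others, and the parental arrays read 9.82 and 9.76 with 8 h of dox and 9.99 and 9.83 without. The 12 h mean was 0.42 ± 0.11 log2 units above that of 0 h (SE, 1.34-fold, 95% interval 0.19 to 0.66, adjusted p = 0.0322). The authors' deposited table gives a log2 fold change of 0.398 and an adjusted p of 0.0122 for the same probe and times. The call was lost without any 1 of the 4 arrays compared (adjusted p 0.0925 to 0.201), with differences of 0.38 to 0.47.

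Whether Aurka at 12 h differed from its neighbours in time was tested as well. It was 0.34 ± 0.11 above 8 h (adjusted p = 0.0966), and 24 h minus 12 h was -0.25 ± 0.11 (adjusted p = 0.258), so neither step passed. Its median-scaled difference at 12 h was 0.60, where the median of all genes was 0.10.

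The other mitotic kinases did not pass. Aurkb, the kinase of the chromosomal passenger complex, read 9.35 and 9.46 at 0 h, 9.39 and 9.33 at 8 h, 9.62 and 9.61 at 12 h, and 9.43 and 9.45 at 24 h. As for Aurka, Rrm1 and Mcm5, both 12 h arrays were the highest of the 12, while they were the lowest for Mcm10 and Mcm4. The share of all genes with such a pattern was not counted. The difference was 0.21 ± 0.10 against 0 h and 0.26 ± 0.10 against 8 h (adjusted p = 0.148), and neither passed. Plk1, which acts on centrosomes and kinetochores, read 10.36 and 10.14 at 0 h, 10.31 and 10.24 at 8 h, 10.31 and 10.46 at 12 h, and 10.66 and 10.43 at 24 h. Its 24 h arrays lay above both 0 h arrays, with a difference of 0.30 ± 0.12 (adjusted p = 0.179). Birc5, the survivin subunit of Aurkb's complex, spanned only 0.11 log2 units (1.08-fold) over the 6 groups.

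**Figure D3:**
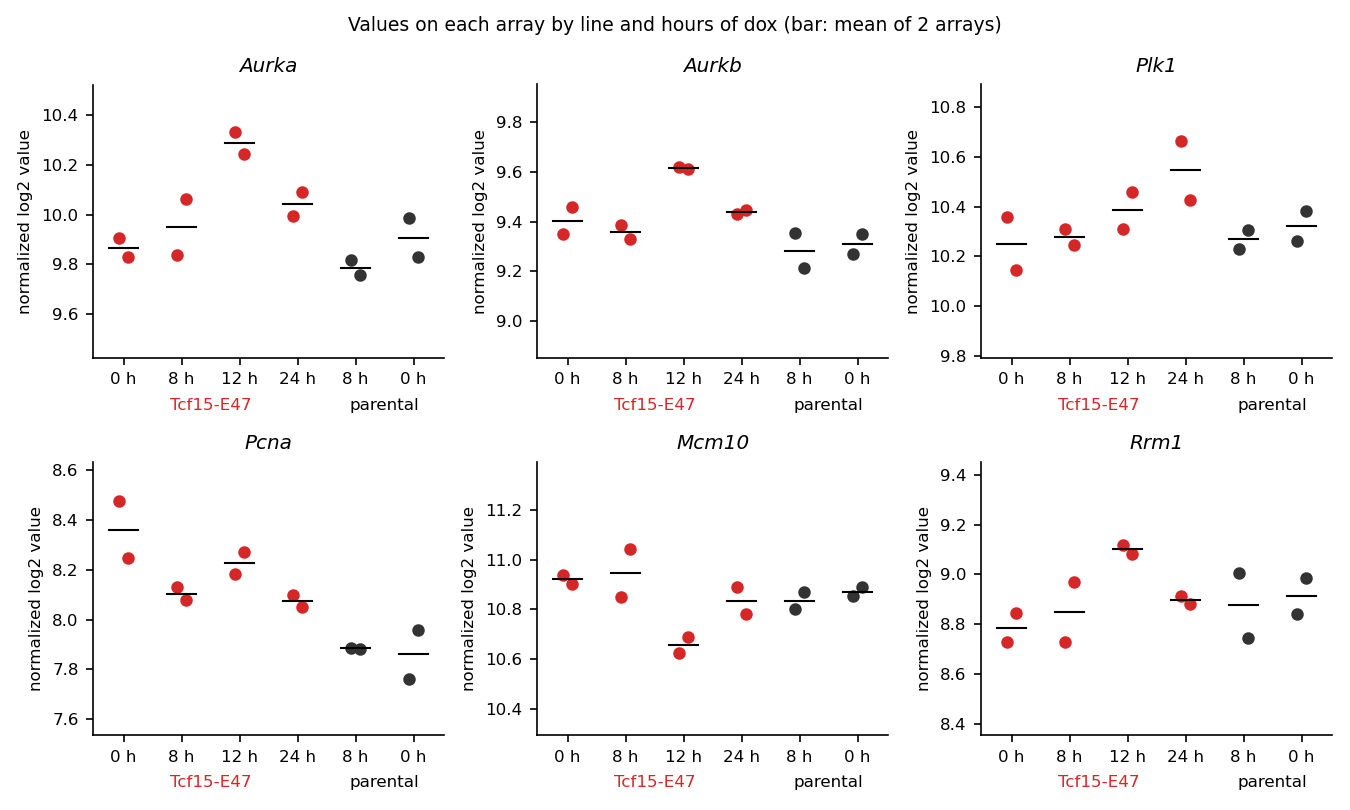
Normalized log2 value (vertical axis, 1.1 log2 units in every panel) of 6 genes on each array, by hours of dox for Tcf15-E47 cells (red, 0 to 24 h) and parental cells (dark, 8 h then 0 h); bars are means of 2 arrays. Aurka, Aurkb and Rrm1 are highest and Mcm10 lowest on the 12 h arrays, and Pcna is highest in untreated Tcf15-E47 cells.

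Cdk1, the kinase that drives entry into mitosis, read 10.14 and 10.15 at 0 h, 10.09 and 10.21 at 8 h, 10.31 and 10.25 at 12 h, and 10.27 and 10.50 at 24 h. All arrays at 12 and 24 h lay above both 0 h arrays. The differences were 0.14 at 12 h and 0.24 ± 0.10 at 24 h (adjusted p = 0.230). Its partner Ccna2 was dim, well above background on 11 of the 12 arrays, and was at -0.28, -0.14 and -0.08 at the 3 times, none of which passed.

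Cdc20, which activates the anaphase-promoting complex, read 11.29 and 11.25 at 0 h, 11.35 and 11.34 at 8 h, 11.45 and 11.47 at 12 h, and 11.44 and 11.45 at 24 h. Every array with dox lay above both without, and the steps were small, at 0.07, 0.19 ± 0.09 (adjusted p = 0.225) and 0.18 ± 0.09. In the authors' deposited table the same probe has a log2 fold change of 0.192 at 12 h (adjusted p 0.0141) and 0.177 at 24 h (adjusted p 0.0338). Cdc20's parental arrays with dox, at 11.47 and 11.51, lay above every Tcf15-E47 array. Those without dox read 11.44 and 11.51, and the lower of them lay just below the 12 h and 24 h arrays of Tcf15-E47 cells. The checkpoint proteins Bub1b and Mad2l1 were at 0.09 and -0.09 at 12 h, and at 0.19 and 0.05 at 24 h. Top2a, the topoisomerase that untangles chromatids, and Cenpa, the histone of centromeres, were at 0.12 and -0.20 at 24 h, and neither passed.

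Steps between the dosed times were compared too. At 12 h against 8 h, the median of the 31 genes was 0.11 with 21 of 31 positive, beside a median over all genes of 0.00. That median was 0.05 with the authors' normalized values and without replicate 2 of 12 h, and 0.06 as the mean of a gene's probes. In this comparison the groups of arrays did not overlap for 14 higher and 6 lower genes, where 53.6% of all genes (27.6% higher, 26% lower) did not. None of the 31 passed at 12 h against 8 h, where 4.26% of all genes did. At 24 h against 12 h none passed either, against 1.85% of all genes, and the median of the 31 was 0.00. At an unadjusted p under 0.05 there were 3 of the 31 at 12 h against 8 h (Aurka, Aurkb and Mcm10) and 1 at 24 h against 12 h (Aurka), and 2048 and 1731 of all genes. These comparisons share the 12 h arrays with each other and with 12 h against 0 h.

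In parental cells, which lack the construct, dox for 8 h gave no call among the 31 genes, and 0% of all genes passed. The median difference was 0.00, and the 95% interval lay within 1.5-fold for 30 of the 31. Bub1b, with 10.23 and 10.35 at 8 h against 10.11 and 9.91 at 0 h, was the 1 gene of the 31 at an unadjusted p under 0.05 (0.28 ± 0.12, adjusted p = 0.787), beside 616 of all genes. Replicate 2 at 8 h, the array with 5 fibroblast markers, was included. Without it none of the 31 passed. Whether those transcripts' source had a part in the values of the 31 genes was not tested.

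Set against the parental response, the 8 h response of Tcf15-E47 cells differed for none of the 31 genes, and 0% of all genes passed (limma, adjusted p under 0.05). None of the 31 and 515 of all genes had an unadjusted p under 0.05. The median of this difference was -0.02, with 13 of 31 positive. Its error is larger, since 4 groups enter, and the 95% interval lay within 1.5-fold for 27 of the 31 genes, against 68.6% of all genes. The lowest value was that of Ccna2, at -0.40, and the highest that of Aurka, at 0.20. The untreated parental arrays of Ccna2 read 5.20 and 4.66, the latter its lowest value on any array.

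Without dox, 1 of the 31 genes differed between the lines, Pcna, which was higher in Tcf15-E47 cells, and 5.51% of all genes passed (2.47% higher). Pcna read 8.48 and 8.25 in untreated Tcf15-E47 cells, against 7.76 and 7.96 in untreated parental cells. The groups did not overlap, and Pcna on the dosed Tcf15-E47 arrays, between 8.05 and 8.27, also lay above all 4 parental arrays, of which the 8 h arrays read 7.88 and 7.88. The difference without dox was 0.50 ± 0.11 log2 units (SE, 1.42-fold, 95% interval 0.27 to 0.74, limma adjusted p = 0.0213). The authors' deposited table, which subtracts in the opposite direction (parental minus Tcf15-E47), gives a log2 fold change of -0.392 with an adjusted p of 0.0106. The call was lost without replicate 1 of untreated Tcf15-E47 cells (0.39, adjusted p = 0.157), without replicate 1 of untreated parental cells (0.41, adjusted p = 0.0890) and when only these 4 arrays were fitted (adjusted p = 0.0862).

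More of the 31 genes lay higher than lower in untreated Tcf15-E47 cells, though few differences were large. The median was 0.09 with 22 of 31 positive, beside 0.00 over all genes, and with median scaling 0.21, where that of all genes was 0.10. It was 0.05 without either untreated parental array and 0.06 with the authors' normalized values. The groups of arrays did not overlap for 16 higher and 3 lower genes, where 49.2% of all genes (24.2% higher, 25% lower) did not. At an unadjusted p under 0.05 there were 7 of the 31 and 2239 of all genes. Cdc6 was at 0.31 ± 0.13 (adjusted p = 0.165), Tyms at 0.26 ± 0.09 (adjusted p = 0.124), Rfc4 at 0.23 ± 0.10 and Ccna2 at 0.35 ± 0.15 (both adjusted p = 0.188). For Ccna2 the untreated parental arrays stood apart, at 5.20 and 4.66, the latter its lowest value on any array. Gins1, at -0.29 ± 0.13 (adjusted p = 0.212), and Cdc20, at -0.20 ± 0.09 (adjusted p = 0.208), lay lower. In the authors' deposited table, parental minus Tcf15-E47, Tyms (-0.238, adjusted p 0.0156) and Cdc20 (0.195, adjusted p 0.0189) have an adjusted p under 0.05. Construct, clone and culture history cannot be told apart between the lines. Dcn, 1 of the 10 fibroblast markers, was at least 1.61-fold higher in untreated Tcf15-E47 cells (adjusted p = 0.00724), a call lost without either of the untreated Tcf15-E47 arrays. Its difference ran from 0.33 to 1.20 log2 units over the 11 alternatives, so this bound depends on the processing. The other 9 fibroblast markers either were not well above background or did not pass. All 3 primitive endoderm markers tested were lower in untreated Tcf15-E47 cells without overlap of the arrays, with Sox7 at -0.80 (adjusted p = 0.00197, passing under all 11 alternatives, with -0.30 in the authors' normalized values), and Dab2 and Gata6, at -0.34 and -0.33, not passing. Whether cells with these transcripts had a part in the values of the 31 genes was not tested.

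**Figure D4:**
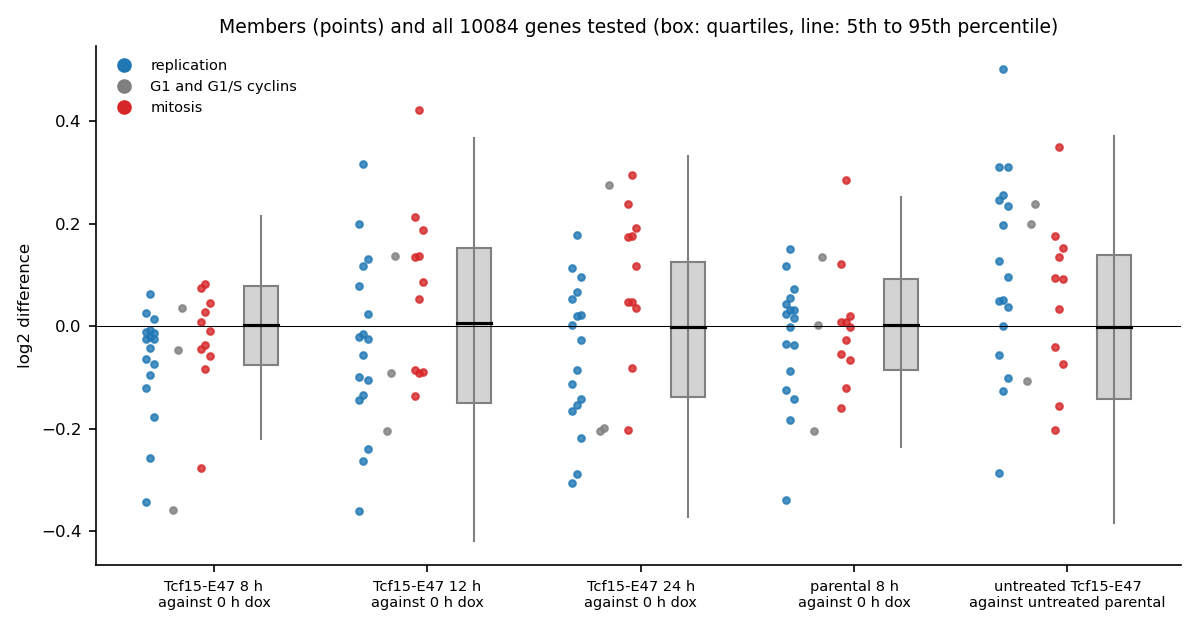
Log2 difference (vertical axis) of the 31 genes in 5 comparisons (points; blue, replication; grey, G1 and G1/S cyclins; red, mitosis) beside all 10084 genes tested (box, quartiles with the median; line, 5th to 95th percentile). The medians of the 31 genes lie between -0.03 and 0.09 in these 5 comparisons, and those of all genes between 0.00 and 0.01.

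Over the 6 groups together, the group means of the 31 genes spanned a median of 0.30 log2 units (1.23-fold), beside 0.35 (1.27-fold) for all genes, and the median SD between replicates was 0.10, beside 0.12. The highest range among the 31 was 0.52, against 3.51 over all genes. Aurka and Pcna followed Ccne1 with 0.50 each.

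Genes with several probes did not always give the same value. Gins2, a GINS subunit, was at 0.10 in untreated Tcf15-E47 cells against parental cells on the probe used, while its 2 other probes were at 0.38 and 0.39 (adjusted p 0.0545 and 0.0590 over all probes kept). For Mcm7, a subunit of the ring, the probe used was at 0.00 at 24 h and 0.20 between the lines, and the other probe at 0.44 and -0.43. Top2a was at 0.15 between the lines on the probe used and at 0.48 on the other. Cdc20's 4 probes were all positive at 12 h, at 0.06 to 0.29. Aurka, Aurkb, Plk1, Pcna, Pole and Rrm1 had 1 probe each.

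Further genes of the same pathways were read from 3 lists of other replication genes (35 tested), other mitosis genes (45 tested) and G1 control genes with E2F, MYC and MuvB factors (25 tested). At 8 h, at 24 h, at 24 h against 12 h, in parental cells and in the difference of both 8 h responses, none of these genes passed (limma, adjusted p under 0.05). At 12 h against 0 h the other replication genes had 1 higher and 1 lower call of 35, beside 7.74% of all genes. Rfc1, the large subunit of the clamp loader, fell to 8.98 and 9.14 at 12 h, against 9.70 and 9.65 at 0 h (-0.62 ± 0.11, 1.53-fold, adjusted p = 0.00550), and read 9.72 and 9.67 at 8 h and 9.40 and 9.53 at 24 h. Its 12 h arrays lay below all 10 others, and it was also lower at 12 h than at 8 h (-0.63, adjusted p = 0.00775). Orc3, of the origin recognition complex, was higher (0.47, adjusted p = 0.0466).

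Of the 45 other mitosis genes, 3 were lower at 12 h against 0 h and none was higher, beside 474 lower and 306 higher of all 10084 genes, so the count was near the share of all genes. Kif23, a kinesin of cytokinesis, was at -0.46 (adjusted p = 0.0347), Cenpf, a kinetochore protein, at -0.44 (adjusted p = 0.0334), and Kif4, a kinesin of the central spindle, at -0.39 (adjusted p = 0.0398). These lie in the opposite direction to Aurka at the same time. Without any 1 of the 4 arrays compared, these 3 calls and that of Orc3 were lost. The call of Rfc1 was lost without replicate 1 at 12 h (-0.53, adjusted p = 0.0732) and held without each of the other 3, and at 12 h against 8 h it was lost without replicate 1 at 12 h (-0.55, adjusted p = 0.0998) and without replicate 1 at 8 h (-0.61, adjusted p = 0.0696). Median scaling ended the calls of all 5 genes at 12 h against 0 h (-0.47, adjusted p = 0.101 for Rfc1), and that of Rfc1 at 12 h against 8 h (-0.52). The call of Orc3 was also lost with the replicate number as a block (adjusted p = 0.0571), and those of Orc3, Cenpf and Kif23 with no filter, of Orc3 and Cenpf with trended, robust moderation, and of Kif4 with only the arrays compared (adjusted p = 0.0527). Orc3 and Cenpf were at 0.16 and -0.15 in the authors' normalized values and did not pass there, and Kif23 was at -0.21 as the mean of its probes (adjusted p = 0.166). Ube2s, which extends ubiquitin chains with the anaphase-promoting complex, was higher at 12 h than at 8 h (0.40, adjusted p = 0.0405).

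Among the G1 control genes, E2f6, a repressor of the E2F family, was higher at 12 h, with 8.76 and 8.87 against 8.43 and 8.47 at 0 h (0.37 ± 0.10, adjusted p = 0.0420), and against 8 h (0.40, adjusted p = 0.0409). The parental arrays read 8.62 and 8.70 with dox and 8.70 and 8.89 without, which overlaps the 12 h arrays of Tcf15-E47 cells. Between the untreated lines, Mybl2, the B-Myb factor that works with MuvB, was higher in Tcf15-E47 cells (8.50 and 8.40, against 8.02 and 7.70 in parental cells, 0.59 ± 0.12, adjusted p = 0.0187). Rb1, the retinoblastoma protein that restrains E2F, was lower (6.28 and 6.34, against 6.97 and 6.72 in parental cells, -0.54 ± 0.12, adjusted p = 0.0276). Of the other mitosis genes, Cenpk, a kinetochore subunit, was higher in untreated Tcf15-E47 cells (6.87 and 6.85, against 6.06 and 6.19 in parental cells, 0.73 ± 0.11, 1.66-fold, adjusted p = 0.00342), as was Aspm, a spindle pole protein (0.61, adjusted p = 0.0345). The calls of E2f6 and Ube2s were lost without any 1 of the arrays compared, and those of Mybl2, Rb1 and Aspm without 3 of the 4 arrays in turn (adjusted p up to 0.212 for E2f6 at 12 h against 0 h and 0.210 for Aspm). The calls of E2f6, Ube2s, Mybl2, Rb1 and Aspm were also lost with only the arrays compared, those of E2f6, Ube2s and Rb1 with median scaling, those of Rb1 and Aspm with no filter, and those of E2f6 and Mybl2 as the mean of a gene's probes (0.17, adjusted p = 0.428 for Mybl2). Ube2s was at 0.22 in the authors' normalized values. Cenpk passed under all 11 alternatives, with 0.40 in the authors' normalized values. The calls between the lines, 2 of 45 other mitosis genes and 2 of 25 G1 control genes, stand beside 5.51% of all genes. The medians of the 3 lists between the lines were 0.03, -0.02 and -0.05.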

How the data were processed

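Expression was measured on 12 Illumina BeadChip arrays, 2 for each of 6 groups. One table holds bead signal intensity without background subtraction and a detection p-value for every entry and array, per the file headers. The normalized values that the authors deposited are in log2 units and have equal quantiles across arrays, as the values show. The submitters' processing notes name limma. The authors' deposited table of comparisons gives log2 fold changes and adjusted p-values for each probe, per the file headers.

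Since the names of the 30854 intensity entries match 0 of the 38561 normalized probes, 17020 entries were matched by value on all 12 arrays, and isotonic curves (scikit-learn 1.9.0) gave each probe its signal on each array. Refitted without 8510 of the matched entries, the curves led 100% of those back to the same probe, which covers only entries with a clear match. Background correction and quantile normalization used neqc in limma 3.58.1 under R 4.3.3, with an offset of 16. Probes detected at p below 0.01 on 2 or more arrays were kept (13914). The platform annotation pairs 32093 probes with a single gene, 16 with several and 6452 with none. Unnamed probes were tested singly, which gave 8528 named and 1556 unnamed features, called genes in the text.

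Group means were fitted over all 12 arrays (lmFit, contrasts.fit and eBayes of limma, two-sided, 6 residual and 7.03 prior degrees of freedom), with Benjamini-Hochberg adjustment over all 10084 features in each of 8 comparisons. A gene passed at an adjusted p under 0.05. Errors are SEs of this fit, and the number of arrays limits the precision. The members and lists were chosen with earlier results of these data known. The text names all 38 members, up to 4 called genes of each further list and comparison, Tcf3 and Tcf15, and gives array values for called members and for those with the largest difference in a role. Array values of other genes, and Rfc2, Pold1, Pold2, Pold3 and Gata6, were added after their values were seen. Alternatives were the authors' normalized values, median scaling, no filter, trended and robust moderation, only the arrays compared, the mean of a gene's probes, the replicate number as a block, and each array left out. The fit was tested on simulated data.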

Additional observations from a re-analysis of the deposited data

How the results depend on the processing

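Among the 31 genes, the count of calls stayed 0 under the alternatives run at 8 h and 24 h against 0 h, at 24 h against 12 h, in parental cells and for the difference of both 8 h responses. At 12 h against 0 h the count of 1 became 4 with the authors' normalized values (Aurka, Rrm1 and Cdc20 higher, Mcm10 lower) and 3 with trended, robust moderation (Aurka and Rrm1 higher, Mcm10 lower), and was 0 without each of the 4 arrays in turn. At 12 h against 8 h the count of 0 became 3 with the authors' values (Aurka and Aurkb higher, Mcm10 lower) and 2 with trended, robust moderation (Aurka and Mcm10). Between the untreated lines the count of 1 became 3 with the authors' values (Pcna and Tyms higher, Cdc20 lower) and 0 when only the 4 arrays compared were fitted, and ran from 0 to 1 with an array left out. Without replicate 1 of untreated parental cells the 1 call was Ccna2 in place of Pcna. The cause of these differences in count was not tested. On the untreated parental array left in the fit that called Ccna2, that gene read 4.66, the lowest of its 12 values. No difference of a called gene reversed.

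Same-numbered arrays deviated from their group means with correlations of -0.05 to 0.15, and the labels do not say that a number marks a shared culture or day, so the numbers were not taken as pairs. With the replicate number as a block the counts of calls stayed 1 at 12 h against 0 h, 1 between the lines and 0 elsewhere.

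Over all 10084 genes, the 780 calls at 12 h against 0 h rose to 1050 with the authors' values, 1095 with trended, robust moderation and 928 with only the arrays compared. They fell to 584 with no filter and 429 with median scaling, and also fell with each array left out. The 423 calls at 24 h against 0 h rose to 566 with the authors' values and 631 with trended, robust moderation. They fell to 288 with median scaling, 269 with no filter and 254 with only the arrays compared, and also fell with each array left out. The 430 calls at 12 h against 8 h became 685 with the authors' values, 747 with trended, robust moderation, 187 with median scaling and 81 to 145 with an array left out. The 187 calls at 24 h against 12 h became 366 with the authors' values, 405 with trended moderation, 109 with no filter, 69 with median scaling, 47 with only the arrays compared and 3 to 27 with an array left out. The 556 calls between the untreated lines became 845 with trended moderation, 352 with no filter, 230 with median scaling, 150 with only the arrays compared and 83 to 333 with an array left out. The 0 calls at 8 h in Tcf15-E47 cells, at 8 h in parental cells and in the difference of both became at most 5, 24 and 10.

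Signal over background limits the dim genes: Prim1, Ccne2 and Ccna2 were well above background on 9, 5 and 11 of the 12 arrays, and Pola1, Rrm2, Bub1 and Cenpe on none.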
